A study of Arabidopsis thaliana with 9 samples.

Results

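RAX1 and LMI2 are MYB transcription factor genes of Arabidopsis, and each was examined here together with its closest relatives for peaks of the floral regulator LEAFY (LFY). The set held 9 of the 27444 protein-coding genes on the nuclear chromosomes, taken by their locus identifiers. The RAX clade comprised RAX1 (AT5G23000, also MYB37), RAX2 (AT2G36890, MYB38), RAX3 (AT3G49690, MYB84), MYB36 (AT5G57620), MYB68 (AT5G65790) and MYB87 (AT4G37780). The LMI2 clade comprised LMI2 (AT3G61250, MYB17), MYB16 (AT5G15310) and MYB106 (AT3G01140, NOECK). A peak was given to a gene when its summit, the base with the highest read pileup, lay in the gene or within 3 kb on either side. Of the 1181 deposited peaks, 1177 were nuclear, and 5 of them met this rule, at 4 of the 9 genes.

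LFY switches on floral fate in young meristems and binds DNA at a palindromic core, which may sit at a nucleosome. RAX1, RAX2 and RAX3 help to start axillary meristems, the stem cell groups that form in leaf axils. LMI2 is a known LFY target that promotes meristem identity. MYB36 directs formation of the Casparian strip in the root endodermis, while MYB16 and MYB106 shape epidermal cells and promote cuticle formation. MYB68 and MYB87 are less well studied relatives of RAX1.

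The study asked whether LFY acts as a pioneer factor, one that can bind its sites while they are wrapped in nucleosomes, and mapped LFY in root explants to compare its sites with nucleosome positions. Roots of 3-week-old seedlings of the Landsberg erecta accession were kept for 5 days on callus inducing medium. All plants carried 35S:LFY-GR, in which a broadly active viral promoter drives LFY fused to the hormone-binding part of the glucocorticoid receptor, and were otherwise wild type. LFY protein was therefore present in cells that do not normally make it, and dexamethasone (dex) brings the fusion into the nucleus. Groups of 3 libraries were made from tissue given 5 µM dex for 1 h, from mock-treated tissue and from input DNA. The sample labels put the dex treatment in the last hour, although the text of the series as a whole gives a longer time. Chromatin immunoprecipitation used an LFY antibody. The 3 dex libraries were pooled and called against the 3 pooled mock libraries, and the input was not part of the calling. There were thus no values per replicate, and every interval given covers counting error in the pooled reads only. Whether the explants also held other cell types could not be checked, since no expression values were analysed here.

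Each peak came with a fold enrichment of dex over mock and with p- and q-values. The numbers of dex and mock reads behind them were recovered from those values. At the median nuclear summit the fold was 4.04 on 114 dex reads. The background was the largest of the mock reads in the summit window, mock averages over 1 kb and 10 kb, and a genome-wide floor. The floor was 17.97 mock reads per summit window. The background was the summit's own mock reads at 53.2% of nuclear peaks and the floor at 31.9%. Where it was the floor, the mock reads are known only to be 17 or fewer.

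The sequences below are those under the 5 summits at RAX1, RAX2, RAX3 and LMI2, shown because the LFY core could be sought in them. They come from the plus strand of the Columbia reference genome (TAIR10.1), so they may differ from the Landsberg erecta tissue. The exact core searched was CCANTGG, which reads the same on both strands. The capitals mark the 19 bases that matched best a matrix of LFY sites, described with the results below.
RAX1 upstream, chr5:7695387-7695507: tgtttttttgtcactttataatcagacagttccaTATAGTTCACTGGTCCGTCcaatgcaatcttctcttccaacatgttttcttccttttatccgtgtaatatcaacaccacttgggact
RAX1 past the end, chr5:7699706-7699906: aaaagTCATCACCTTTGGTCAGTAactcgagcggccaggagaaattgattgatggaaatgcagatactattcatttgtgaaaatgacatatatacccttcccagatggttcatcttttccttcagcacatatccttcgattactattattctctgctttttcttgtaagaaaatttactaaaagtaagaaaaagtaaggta
RAX2 upstream, chr2:15484198-15484476: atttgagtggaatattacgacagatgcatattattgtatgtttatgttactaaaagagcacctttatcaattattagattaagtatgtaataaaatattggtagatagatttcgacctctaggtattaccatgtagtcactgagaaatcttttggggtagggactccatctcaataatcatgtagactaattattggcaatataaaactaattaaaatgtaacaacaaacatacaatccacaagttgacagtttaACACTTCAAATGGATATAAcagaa
RAX3 upstream, chr3:18426365-18426485: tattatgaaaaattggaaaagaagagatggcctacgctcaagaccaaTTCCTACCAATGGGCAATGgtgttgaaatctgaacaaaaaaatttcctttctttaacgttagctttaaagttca
LMI2 upstream, chr3:22669985-22670105: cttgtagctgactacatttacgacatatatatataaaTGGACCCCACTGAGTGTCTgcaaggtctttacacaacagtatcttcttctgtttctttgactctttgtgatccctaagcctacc

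LFY peaks lay upstream of the 3 RAX genes and of LMI2, and by the summit rule at none of the other 5 genes. Among all protein-coding genes, 6.61% (1814 of 27444) had a summit under the same rule, and among 116 other MYB genes 18 did (15.5%). In the RAX clade 3 of 6 genes had a summit, and in the LMI2 clade 1 of 3. The genes were chosen with these peaks in view, so their count was not tested against the background. All 5 summits lay outside annotated genes. The share of all nuclear summits outside genes was not worked out, so this only describes their position.

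**Figure D1:**
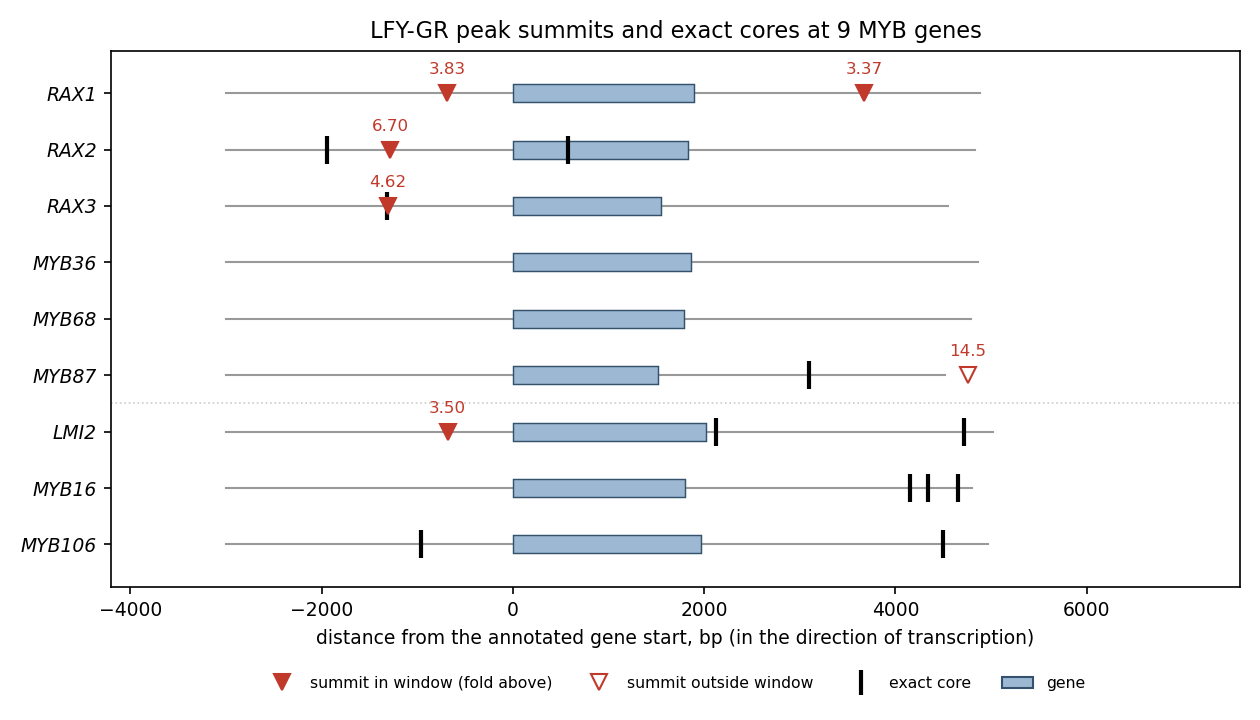
Each row is a gene drawn in the direction of transcription, with the distance from its annotated start in bp on the x axis, and the grey line is the gene with 3 kb on both sides. Filled triangles mark summits in that window with the fold above them, the open triangle the summit 3240 bp past the end of MYB87, and black ticks exact cores. RAX3 is the gene whose summit, with a fold of 4.62, sits on a core.

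RAX1 was the member with 2 peaks. The gene lies on chromosome 5 from 7696135 to 7698022 on the plus strand. Its upstream peak spanned 405 bp from 7695237 to 7695641, and the summit lay 688 bp before the gene start. The same summit lay 2979 bp upstream of AT5G22990, the neighbouring gene on the minus strand, 3666 bp away from RAX1. The upstream summit held 135 dex reads and 27 mock reads, which gave a fold of 3.83 and a −log10 q of 27.5. Scaled for depth, the ratio of dex to mock was 3.94, with an exact 95% interval of 2.59 to 6.20. Its fold stood at percentile 42.2 of all nuclear peaks and its dex reads at percentile 64.7. The mock background there, 27 reads against the floor of 17.97, stood at percentile 82.7, so a fold in the lower part of the list went together with dex reads in the upper part.

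The other RAX1 peak (7699502 to 7699997) had its summit 1784 bp past the gene end and 4359 bp from the upstream summit. It held 80 dex reads over the floor, with a fold of 3.37 and a −log10 q of 13.7, and its dex reads stood at percentile 11.0. The nearest gene start was that of MAM1 (AT5G23010, a glucosinolate biosynthesis gene), 3235 bp beyond the summit. Genes with more than 1 summit in the window made up 1.09% of protein-coding genes (298 of 27444). Peak numbers in the list follow genome order, and number 1939, which falls between the upstream peak (1938) and this peak (1940), was not listed. The number itself gives no position. If it stood for a separate region that did not reach the list, that region lay in the 3860 bp between them, which hold the RAX1 gene.

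RAX2, which acts in part redundantly with RAX1, had the highest fold of the 9 genes. It lies on chromosome 2 from 15485619 to 15487451 on the plus strand. Its peak spanned 809 bp from 15484208 to 15485016, wider than 92.6% of nuclear peaks. The summit, 1282 bp before the gene start, lay only 129 bp from the left edge of the peak with 679 bp to its right, which left it farther from the middle of its peak than 99.2% of nuclear summits. It held 160 dex reads over the floor, giving a fold of 6.70 (percentile 86.4), a −log10 q of 58.4 and a ratio of 7.01. The exact Poisson interval on the dex reads was 5.97 to 8.19, and the low bound became 4.49 if 17 mock reads were assumed. The same summit lay 549 bp upstream of AT2G36885, which is read in the opposite direction from the same intergenic region, and 2925 bp upstream of MAT3 (AT2G36880, a methionine adenosyltransferase gene). Distance alone thus put this peak closer to AT2G36885 than to RAX2.

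RAX3, the third axillary meristem regulator of the clade, had the narrowest of the 4 upstream peaks. The gene lies on chromosome 3 from 18427735 to 18429281 on the plus strand. Its peak (18426292 to 18426549) was 258 bp wide, and the summit lay 1310 bp before the gene start, close to the 1282 bp found at RAX2. It held 110 dex reads over the floor, with a fold of 4.62 (percentile 62.7), a −log10 q of 27.8 and a ratio of 4.82 (3.96 to 5.81, with a low bound of 3.04 at 17 mock reads). The summit also lay 667 bp past the end of BCAT3 (AT3G49680), a branched-chain aminotransferase gene that precedes RAX3 on the same strand.

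LMI2 lies on chromosome 3 from 22670729 to 22672751 on the plus strand. Its peak (22669847 to 22670248) was 402 bp wide, and its summit lay 684 bp before the gene start, against 688 bp at RAX1. It held 163 dex reads and 36 mock reads, with a fold of 3.50 (percentile 29.9), a −log10 q of 29.3 and a ratio of 3.57 (2.47 to 5.27). Its dex reads, at percentile 77.0, were the most of the 5 member summits, and its background, 2.00 times the floor and at percentile 94.5, was also the highest. Only 971 bp separated LMI2 from AT3G61240, and the summit lay 288 bp past the end of that gene. No other nuclear summit lay within 278546 bp.

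**Figure D2:**
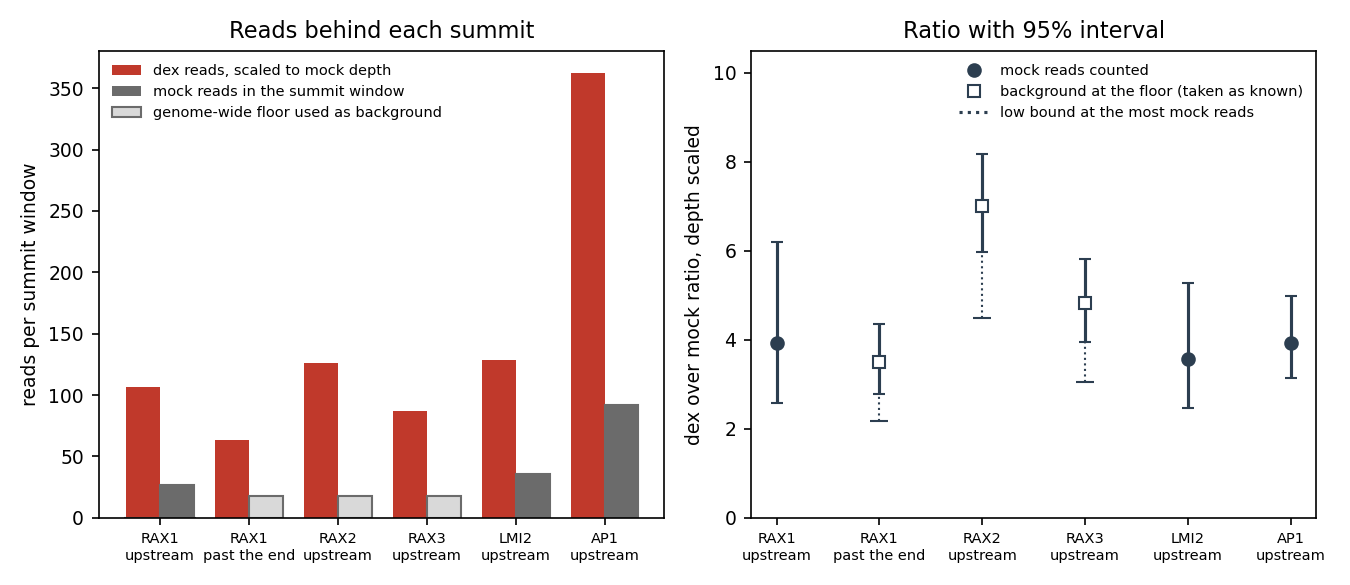
Left, reads per summit window (y axis) at the 5 member summits and at the AP1 promoter, with dex reads scaled to the mock depth in red and the background beside them. Right, the depth-scaled ratio of dex to mock with its 95% interval, where open squares have the floor as background and the dotted lines reach to the low bound when 17 mock reads are assumed. RAX2 has the highest ratio at 7.01, and RAX1 and LMI2 sit at 3.94 and 3.57 with wide overlap.

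The ratios of the 5 summits were compared in 10 pairs. Only RAX1 and LMI2 upstream had mock reads counted at both summits. Their ratios differed by a factor of 1.10 (95% interval of the odds ratio 0.617 to 1.99), and the two-sided Fisher exact test on pooled reads gave p = 0.781. The interval takes in a higher ratio at either gene. What difference could have been detected at this depth was not worked out.

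RAX2 and RAX1 upstream differed by a factor of 1.78 (1.41 to 2.26) if the background is taken as known without error (exact binomial p = 9.27e-07, adjusted over 10 pairs 3.09e-06). When RAX2 was instead given 17 mock reads, the most its floor allows, the odds ratio was 1.88 with an interval of 0.941 to 3.84 (Fisher exact p = 0.0743, adjusted over 6 pairs 0.223). The dex reads themselves, 160 against 135, gave an exact binomial p of 0.162. The call that RAX2 exceeded RAX1 therefore depended on how the mock background at RAX2 was treated. Its mock reads are known only to be 17 or fewer, and smaller numbers were not tried.

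LMI2 was compared in the same way. RAX2 was 1.97 times higher (1.57 to 2.46, adjusted exact p = 1.80e-08) and RAX3 1.35 times higher (1.05 to 1.73, adjusted exact p = 0.0346) with the background as known. For RAX3 the Fisher exact test with 17 mock reads gave p = 0.285 (adjusted 0.570), and the dex reads ran the other way, 110 at RAX3 against 163 at LMI2 (exact binomial adjusted p = 0.00400). With 17 mock reads the odds ratio of RAX2 to LMI2 was 2.07 (1.08 to 4.11), with a Fisher exact p of 0.0253 that became 0.152 after adjustment. The dex reads at RAX2 and LMI2 were 160 and 163 (exact binomial adjusted p = 0.911). RAX2 also exceeded RAX3 by 1.45 times (1.13 to 1.87, adjusted exact p = 0.00699) with the background as known, while both had the floor beneath them. In all, 5 of 10 pairs passed an adjusted p of 0.05 with the background known and 0 of 6 with the most mock reads. The most mock reads give the lowest ratio that the floor allows, and smaller numbers were not tried for any of the pairs. Of those 5 pairs, RAX2 with RAX3 and RAX2 with the RAX1 summit past the end had the floor at both summits and no test that counts mock error. These tests compare pooled libraries, not replicate cultures.

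The 5 member summits had folds of 3.37 to 6.70 with a median of 3.83, and 2 of the 5 lay above the nuclear median of 4.04. Their dex reads ran from 80 to 163. The 3 summits with the floor as background lie on the upper edge of the cloud of all peaks, where the fold follows from the dex reads alone. RAX1 and LMI2 upstream lie below it. The promoter peak of AP1 (AT1G69120), the floral identity gene that LFY is best known to activate, had the same ratio as RAX1, 3.94 (3.14 to 4.98), on 460 dex and 92 mock reads.

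**Figure D3:**
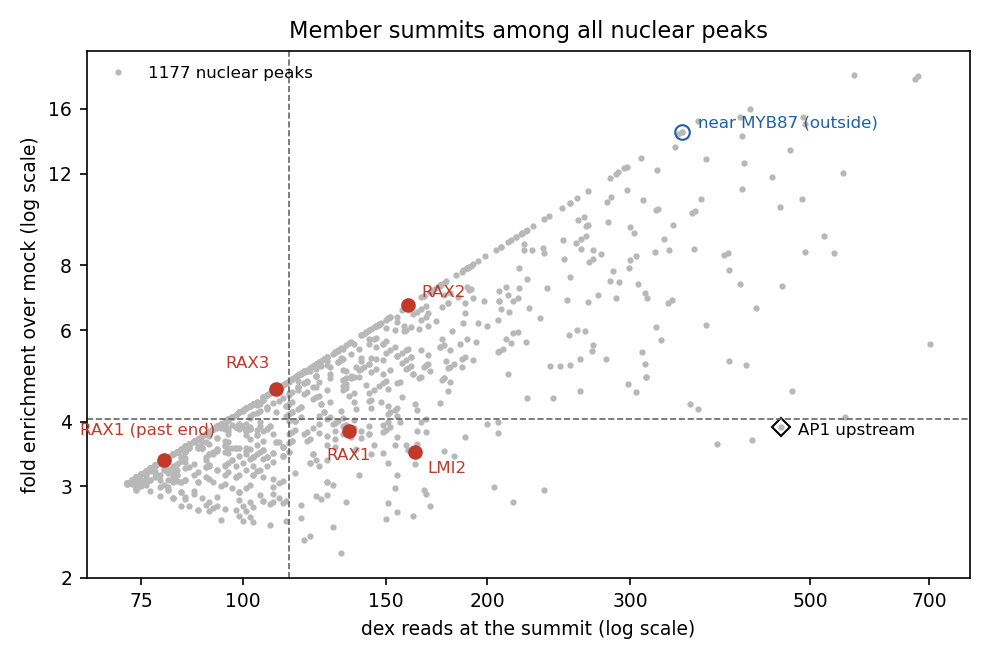
Fold enrichment against dex reads at the summit, both on log scales, for 1177 nuclear peaks in grey, with the member summits in red, the AP1 promoter summit as a diamond and the summit nearest to MYB87 as an open circle. Dashed lines are the medians, 4.04 and 114. RAX1 and LMI2 fall below the median fold at above-median reads, and RAX2 and RAX3 above it on the edge set by the floor.

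The peaks most like those at RAX1 and LMI2 in log2 fold and log2 dex reads were named by the nearest gene start, as a description of this pooled comparison. For RAX1 they lay nearest to PBL1 (AT3G55450, a receptor-like cytoplasmic kinase gene), AT3G11690 and HA2 (AT4G30190, a plasma membrane proton pump gene), with folds of 3.79, 3.89 and 3.92. For LMI2 they lay nearest to AT3G14060, AT2G34350 and AT1G73340, with folds of 3.53, 3.62 and 3.61. Of these 6 peaks, that at AT2G34350 held an exact core.

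Of the 5 member summits, that at RAX3 had an exact core within 150 bp. Over all nuclear summits 13.1% (154 of 1177) had a core at this distance, against 3.74% of windows of the same length placed 1000 bp to the left and 4.33% of those to the right. At RAX3 the core CCAATGG was centred 4 bp from the summit, and GCAATGG followed directly on it. Of all protein-coding genes, 72.5% had an exact core somewhere in the gene or within 3 kb, so a core in a window is no rare feature.

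At RAX1 no exact core lay in the gene or its 3 kb flanks, and the nearest to the upstream summit was 4287 bp away. With up to 1 mismatch the upstream summit had 4 cores, ACATTGG at 121 bp and TCACTGG at 17 bp to the left, CCAATGC at 5 bp to the left and CCACTTG at 52 bp to the right. RAX2 had CAAATGG at 125 bp to the right, LMI2 CCACTGA at 14 bp to the left and the RAX1 summit past the end CCTTTGG at 86 bp to the left. All 5 member summits thus had a core with up to 1 mismatch, as did 73.6% of nuclear summits and 50.3% of windows to the left. Counted from 1 at the first base of the core, with the core's base first, the differences at the best matrix matches were C1T and A3T at RAX1 upstream and past the end, C2A at RAX2 and G7A at LMI2.

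A position matrix of 19 bases was built from 117 exact cores within 50 bp of nuclear summits that are not at the 9 genes, and the best match within 150 bp was scored in log2 odds. The median score was 4.22 at nuclear summits and −1.13 in windows to the left. RAX3 scored 12.9 (percentile 90.8 of nuclear summits), above every summit without an exact core. The matrix came from exact cores, so a summit with a core ranks high by construction. The rank of RAX3 among summits with an exact core was not worked out. RAX1 upstream scored 8.33 at 17 bp from the summit, which was percentile 82.6 of all summits and percentile 94.5 of those without an exact core. The RAX1 summit past the end scored 4.95 (percentile 56.7). RAX2 and LMI2 scored −0.03 and −0.43, at percentiles 27.2 and 25.4, and both stood near the middle of the windows to the left, at percentiles 55.0 and 53.0. The best score anywhere in the wide RAX2 peak was 1.92, at 398 bp to the right of the summit.

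**Figure D4:**
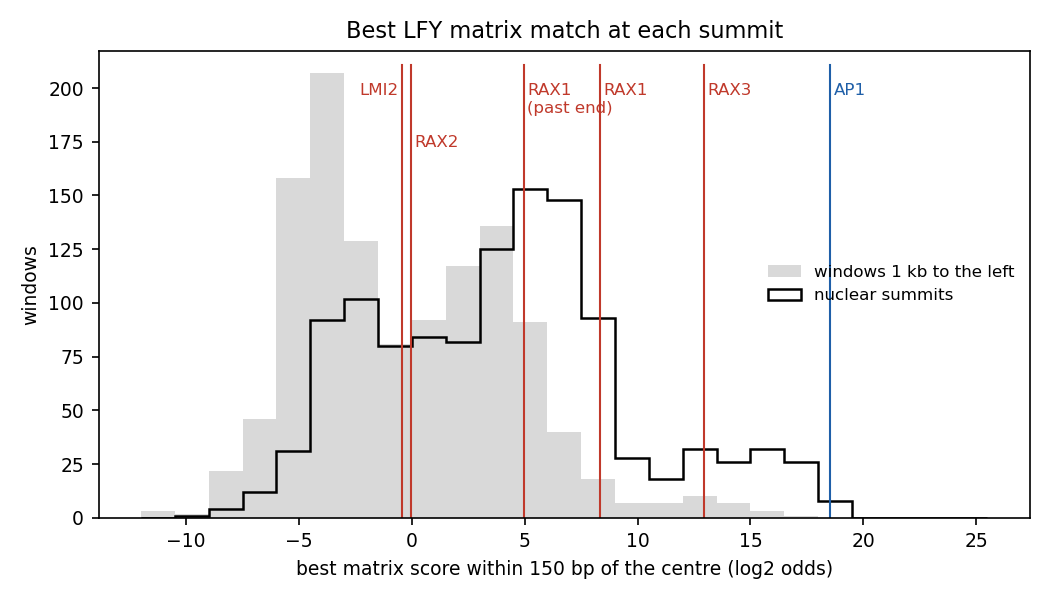
Number of windows (y axis) by the score of their best matrix match within 150 bp of the centre (x axis, log2 odds), for nuclear summits as a black line and for windows 1 kb to the left in grey. Red lines mark the member summits and the blue line the AP1 promoter summit at 18.5. RAX3 and RAX1 upstream lie in the right part of the summit distribution, and RAX2 and LMI2 near 0, where both distributions are well filled.

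The RAX1 match was set beside the AP1 promoter site, whose core is centred 5 bp from the AP1 summit and which is among the cores the matrix was built from. This comparison was chosen after the sequences had been seen, and both matches are shown in capitals with the core in their middle.
AP1 site, chr1:25986509-25986527: TACGGACCACTGGTCCTTC
RAX1 upstream match, chr5:7695421-7695439: TATAGTTCACTGGTCCGTC
They shared 14 of 19 letters on the same strand, more than the best matches at 99.1% of nuclear summits other than that of AP1. Over those summits, RAX1 included, the median was 9. All these matches were picked by the matrix, so core letters were shared in part through that choice. Matches of similar score were not compared, so the percentile only describes the letters shared. The match at RAX1 past the end shared 12 letters, RAX3 shared 11, LMI2 8 and RAX2 7. The longest run of letters shared in place was CACTGGTCC, from position 8 to 16 of the 19, which takes in the last 6 letters of the core and the first 3 after it.

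The 5 genes without a summit differed in how near the closest peak lay. For MYB87 (chromosome 4, 17758232 to 17759746, minus strand) it lay just outside the window, 3240 bp past the gene end, and had a higher fold than any other peak named here, 14.5 on 347 dex reads over the floor (percentile 99.2), with a −log10 q of 210. Its nearest gene start was that of ACS8 (AT4G37770), an ethylene biosynthesis gene, and it lay 835 bp past the end of that gene. The peak spanned 17754174 to 17755267 and reached into the window of MYB87, so counting any base of a peak would add this gene. A further 3 summits, with folds of 3.99 to 7.24, lay between 6327 and 9662 bp past the end of MYB87, and each had ACS8 as its nearest start.

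For MYB106 (chromosome 3, 46330 to 48296, minus strand) the nearest summit lay 7710 bp past the end, inside HYP1 (AT3G01100), with a fold of 4.57 on 260 dex reads. For MYB36 (chromosome 5, 23334767 to 23336632, plus strand) it lay 16503 bp upstream with a fold of 2.75. For MYB16 (chromosome 5, 4974671 to 4976470, plus strand) it lay 30428 bp upstream near GASA4, and for MYB68 (chromosome 5, 26322817 to 26324609, plus strand) 67565 bp past the end. None of these summits met the distance rule of 3 kb, so none was read as a peak of those genes.

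A gene without a listed peak may still have had weaker enrichment. Listed peaks over the floor had at least 72 dex reads, and of the peak numbers up to 2263, 1082 (47.8%) were not listed. For MYB87, MYB16 and MYB106 the listed peaks on either side had consecutive numbers, so no numbered region between them had dropped out. For MYB36 1 number was missing in the 39.3 kb between its flanking peaks, and for MYB68 4 in 142 kb, and their places within those stretches are not known. Around LMI2 5 numbers were missing in 579 kb.

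Exact cores were also found where no summit was. MYB106 had CCACTGG 961 bp before its start, outside any gene, and CCAATGG 2534 bp past its end. MYB16 had 3 cores between 2355 and 2851 bp past its end, 2 of them in exons of AT5G15320 outside its coding sequence. MYB87 had CCAATGG 1579 bp past its end, and MYB36 and MYB68 had none in the window. The 5 genes without a summit held 6 exact cores in all and the 4 genes with a summit held 5. The distance to the next gene upstream was shorter at most genes with a summit, 971 bp at LMI2, 1830 bp at RAX2, 1976 bp at RAX3 and 3666 bp at RAX1, than at the 5 genes without one, where it ran from 3199 to 8295 bp. The medians were 1903 and 4625 bp, and only RAX1 fell within the range of the genes without a summit.

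Genes of 4 lists, on axillary meristems, floral identity, the Casparian strip and the cuticle, were counted under the same rule, against the background of 6.61%. Whether the listed genes act with these MYB factors was not tested. Of 14 axillary meristem regulators 1 had a summit, CUC3, a boundary gene, with its summit 1471 bp past the gene end and a fold of 4.04 on 127 dex and 24 mock reads. LAS, CUC1, CUC2, ROX, STM and REV, among others, had none. Of 10 genes listed for LMI2 and floral identity, among them TFL1, FT, FD and SOC1, 3 had a summit. AP1 had a pair, 164 bp upstream and inside the gene, with folds of 3.91 and 5.13. TFL1, which keeps the inflorescence from forming flowers, had a fold of 12.2 at 2523 bp past its end, and FD, a partner of the floral signal FT, a fold of 9.70 at 2161 bp upstream. The folds at TFL1 and FD were above those of all 5 member summits.

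Of 7 Casparian strip genes that act with or under MYB36, 2 had a summit. CASP1 had a fold of 4.66 at 2880 bp past its end, and ESB1 a fold of 4.44 on 241 dex and 42 mock reads at 1629 bp past its end. Of 3 SHN genes, cuticle regulators like MYB16 and MYB106, SHN2 had a summit 2786 bp upstream with a fold of 5.12. These lists are short and were drawn up with results of the data known, so the shares are given as counts without a test.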

How the data were processed

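Per the labels and the methods of the study, ChIP-seq reads were trimmed, mapped to TAIR10 with Bowtie2 and called by the authors with MACS2, pooled dex against pooled mock libraries, with reads extended to 138 bp. Versions in the submitters' processing notes are Bowtie2 2.3.1, SAMtools 1.7 and MACS2 2.1.1.20160309. Peaks of −log10 q 10 or more were deposited. The deposited list gives each peak's fold enrichment (a ratio) and −log10 p- and q-values, with the summit's offset. No file gives values per sample.

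Reads were recovered by solving fold = (dex + 1)/(background + 1), with dex reads scaled by 0.788, together with the Poisson p. All 1181 peaks were solved, 1171 with a single solution. In a check of the solver, 400 of 400 simulated peaks were recovered. They were drawn from the same formulas, so this does not test whether the deposited values follow them. The distance rule, core search and matrix used the RefSeq annotation of TAIR10.1, and nuclear peaks lay within its chromosome lengths. Protein sequences were not used. Percentiles are shares of nuclear peaks with lower values. Ratios have exact binomial intervals where mock reads were counted and exact Poisson intervals otherwise. The planned Fisher test needs counted mock reads at both summits, which 1 of 10 pairs had, so pairs were also tested with the background as known and with the most mock reads the floor allows. P-values were adjusted by Benjamini-Hochberg over the pairs. Named genes were the 9 members, neighbours that share a peak, genes of 4 lists with a summit and the 3 most similar peaks. Other windows, q limits, core and matrix settings were tried. The members and lists were chosen with earlier results of these data known. Python 3.11.15, SciPy 1.17.1 and pandas 2.3.3 were used.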

Additional observations from a re-analysis of the deposited data

How the results depend on the processing

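With a window of 1 kb, 2 of the 9 genes (RAX1 and LMI2) had a summit, with 2 peaks, against 3.34% of protein-coding genes. With 5 kb MYB87 was added, so 5 genes had a summit, with 6 peaks, against 9.87% of all genes. With 10 kb 6 genes did, with 10 peaks, against 17.3%. Summits in the gene or within 3 kb upstream gave 4 members with 4 peaks and 4.32% of genes. A −log10 q of at least 20 left 4 members with 4 peaks and 4.21% of genes, and one of at least 50 left 1 member with 1 peak (RAX2) and 1.60% of genes. Counting any base of a peak also added MYB87 and gave 5 members with 6 peaks and 6.92% of genes. With the background taken as known, 5 of 10 pairs of summits passed, against 0 of the 1 pair that the Fisher test could take as planned and 0 of 6 with the most mock reads, so these counts are over different pairs. RAX2 exceeded RAX1 by 1.78, past the threshold with the background as known. With up to 1 mismatch 5 member summits had a core. The median matrix percentile was 56.7, and became 64.5 with 3 flanking bases and 45.8 within 50 bp, where the cause was not tested. Of 33 alternatives 16 kept a count within 1.5 times, a share within its 95% interval or a test's side of its threshold. The other 17 did not. Whether a direction reversed was not scored. The setting with the most mock reads, which gives the lowest ratio the floor allows at floor summits, was chosen after seeing the data. No paired analysis was possible because the libraries were pooled before calling. Leaving out single libraries was not possible for the same reason. At 3 of the 5 summits no mock reads could be counted.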

Other observations

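Among the 116 other MYB genes of the annotation, the 18 with a summit in the gene or within 3 kb included regulators of other processes. MYB94, which acts in cuticular wax synthesis, MYB41, which is tied to suberin and cuticle, and MYB14 each had 2 summits, as RAX1 did. MYB11 and MYB12, flavonol regulators, FLP and MYB88, which limit divisions of the stomatal lineage, and MYB107, a suberin regulator in the seed coat, had 1 each. These genes were listed after the search and were not tested.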
